A study of Danio rerio with 9 samples.

Results

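Chromatin contacts of regenerating caudal fins at 4 days post amputation (dpa) were set against those of uninjured fins at 0 dpa. The members were chosen by time point and are 6 of the study's 9 samples, 3 pools of 10 fins at 4 dpa and 3 pools of 10 fins at 0 dpa. All fish were adult wild type zebrafish of the Ekkwill strain, which is outbred, at 6 to 8 months of age, and no allele, transgene or drug distinguished the groups beyond time after the cut. Fins were cut at 50% of their length under anaesthesia; the 4 dpa pools hold tissue collected on the fourth day and the 0 dpa pools hold tissue taken at the cut itself. Because fish within a pool are mixed and the strain is outbred, individual animals cannot be separated.

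The zebrafish caudal fin regrows completely after amputation. A wound epidermis first covers the stump, and a blastema of dividing cells then forms beneath it and rebuilds bone, connective tissue and vessels, so that fins some days after the cut hold other cells than uninjured fins. Enhancers act on genes through physical contacts, and such contacts often join open sites that lie far apart along the chromosome. The assay, HiCAR, captures them from open sites: a transposase inserts an adaptor into accessible DNA of fixed nuclei and the adaptor is joined to DNA ends that lie close by. These are bulk nuclei, so a contact made by more cells cannot be told apart from a contact made more often per cell. The lists hold no expression values, and the labelled tissue could not be checked against marker genes.

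The deposited 4 dpa list held 26988 called contacts and the 0 dpa list 28421, each a pair of 10 kb bins on 1 of 25 chromosomes. For each pair the list gives the contact count, the count expected under the authors' background model and a false discovery rate (FDR, the share of calls expected to be false). The least count was 12 in both lists, and the strength of a pair is given here as its count over its expected count, which was at least 2 in both. The median count was 28 at 4 dpa and 29 at 0 dpa. Each time point has 1 list with no replicate values, so no test, SD or p-value can be given, and sequencing depth is unknown. The 95% intervals below are exact, and those of single contacts cover counting error alone. Those of shares and of the median ratio treat contacts as independent, and none covers variation between pools.

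A 4 dpa contact was called gained if no 0 dpa contact had both its anchors within 1 bin, and a 0 dpa contact was called lost by the same rule in the other direction. Gained contacts numbered 5521, which is 20.5% of the 4 dpa list, and lost contacts 6499, which is 22.9% of the 0 dpa list. A contact absent from a list has no value there, because pairs under the calling limits are not listed. Gained contacts had a median count of 22 and were 3.77 times the expected count by the median, against 29 and 3.93 for the 21467 kept contacts of the 4 dpa list. Lost contacts had a median count of 31 and were 3.08 times the expected count, against 28 and 4.13 for the 21922 kept contacts of the 0 dpa list. Over all spans together, gained contacts thus rested on fewer counts than kept ones, and lost contacts on lower ratios than kept ones. These medians mix spans, and within each span class the median ratio was higher for lost than for gained contacts. At 20 kb it was 2.77 against 2.57, and at 210 to 500 kb 5.92 against 5.40. The lists as a whole differed likewise, with a 5th percentile at 20 kb of 2.22 at 0 dpa and 2.09 at 4 dpa.

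Many of these contacts lay only a little above the level at which the other list made calls. That level was taken as the lowest count called in the other list among pairs with an expected count within 10%. Of the gained contacts 696 (12.6%) were at least 1.5 times this level, against 38.3% of the kept 4 dpa contacts. Of the lost contacts 849 (13.1%) were, against 40.5% of the kept 0 dpa contacts. Requiring identical bins in place of 1 bin instead roughly doubled both sets, to 11258 gained and 12691 lost.

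Gained and lost contacts differed in their reach along the chromosome, as the plot of spans shows. Contacts over 200 kb made up 27.4% of the gained and 9.12% of the lost set, and contacts of at most 50 kb made up 31.3% and 67.6%. The shortest class, 20 kb, held 2825 lost contacts, or 47.0% of all 0 dpa contacts of that span, and 1106 gained contacts, or 29.2% of those at 4 dpa. Between 210 and 500 kb the order was turned: 1201 contacts (27.3% of the 4 dpa list at that span) were gained and 356 (11.7% of the 0 dpa list) were lost. Expected counts moved with span too. For pairs called in both lists they were 1.28 times as high at 4 dpa as at 0 dpa at 20 kb and 1.12 times at 210 to 500 kb, and the part of this difference in the loss of short calls was not tested.

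**Figure D1:**
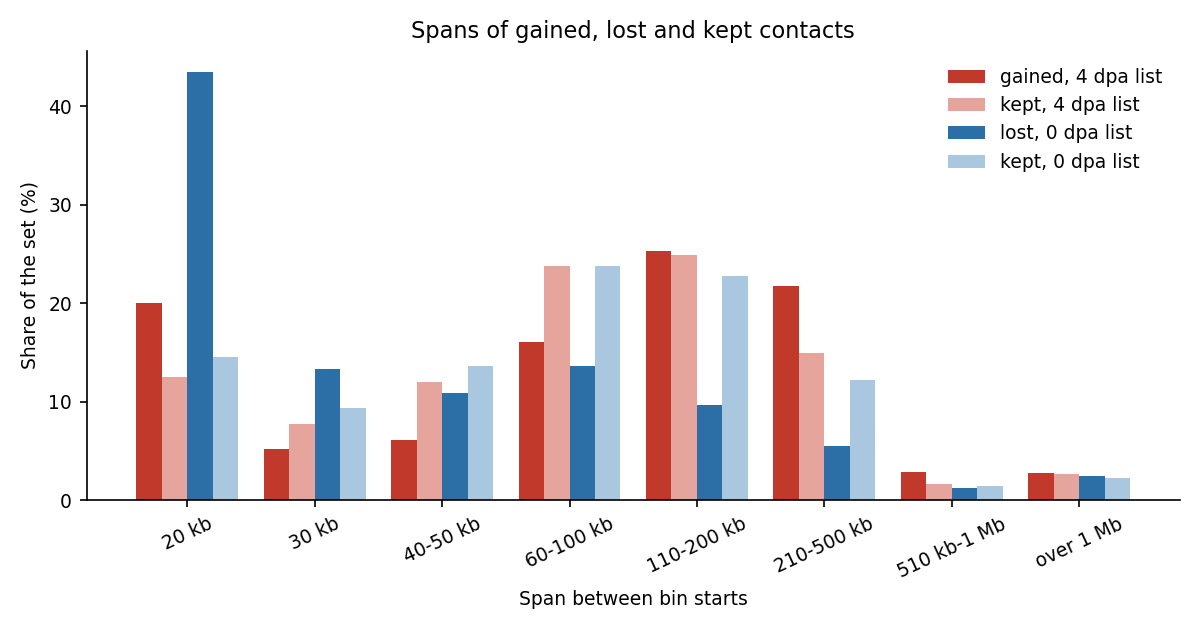
Share of each set of contacts (vertical axis, percent) by span between bin starts, for gained and kept contacts of the 4 dpa list and lost and kept contacts of the 0 dpa list. Gained contacts exceed kept 4 dpa ones at 20 kb (20.03% against 12.5%) and at 210 to 500 kb (21.8% against 14.9%), and 43.5% of lost contacts are of 20 kb.

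Gained contacts ranged from close neighbours of 0 dpa contacts to contacts with none nearby. The nearest 0 dpa contact, taken as the larger of the 2 anchor offsets, was 2 bins away for 1373 gained contacts (24.9%), 3 to 5 bins away for 1388 (25.1%) and over 5 bins away for 2760 (50.0%). For lost contacts the nearest 4 dpa contact was that far for 2979 (45.8%). Both anchors of a gained contact were already anchors at 0 dpa, within 1 bin, in 1590 cases (28.8%), and neither was in 1594 (28.9%). For lost contacts and 4 dpa anchors the shares were 29.6% and 32.7%. Short and long contacts differed in this respect. Of gained contacts of at most 50 kb, 49.5% had neither anchor within 1 bin of a 0 dpa anchor, against 18.9% of those over 200 kb. Lost contacts had the same order, with 40.8% and 19.4%. The 2 anchors of a short contact lie close together, and the part of this was not tested. 

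The number of anchor bins used in 1 list alone was 4435 at 4 dpa (15.8% of 28039) and 5420 at 0 dpa (18.6% of 29134), counting bins with no called anchor within 1 bin in the other list. Most carried a single contact, 3546 of the 4 dpa bins and 4443 of the 0 dpa bins. Only 7 of the 4 dpa bins and 15 of the 0 dpa bins carried 5 or more, out of 1703 and 1856 bins with that many contacts. The busiest at 4 dpa lay at 20320001–20330000 of chromosome 4, with 6 contacts of 20 to 130 kb and 22 to 61 counts each. Its 6 partner bins were likewise without a called anchor at 0 dpa. Other 4 dpa bins differed, as 1 at 46030001–46040000 of chromosome 2 had 5 contacts and 3 partner bins that were anchors at 0 dpa. The 0 dpa bins varied as well. Among them, 1 at 7950001–7960000 of chromosome 6 had 6 contacts of 20 to 110 kb, and 5 of its partner bins were still anchors at 4 dpa. The bin at 33470001–33480000 of chromosome 6 also had 6 contacts, of 20 to 70 kb, and 0 of its partner bins were. These bins were chosen after their values were seen.

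Across the genome, gains and losses were spread widely. The 1346 windows of 1 Mb that held a called contact in either list had a median of 4 gained and 4 lost contacts each, a contact being counted in the window of each anchor. Gained contacts occurred in 1221 windows, lost contacts in 1244 and both in 1144. The 10% of windows with most gained contacts, 135 windows with at least 10 each, held an anchor of 31.0% of them; the same measure for all 4 dpa contacts gave 28.9%. For lost contacts the measure gave 29.6%, against 29.7% for all 0 dpa contacts. Windows were ranked by the same set that was then measured, which lifts the share more for a small set. The gained and lost sets had 5521 and 6499 contacts, against 26988 and 28421 in the lists. These shares therefore cannot tell whether gains or losses were more or less concentrated than called contacts in general.

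The share of contacts gained or lost varied between windows. Among the 634 windows with at least 20 contacts at 4 dpa, the gained share had a median of 18.5%, quartiles of 10.6% and 27.3%, and ran up to 75%; it was at least 40% in 40 windows and 0% in 9. Among the 646 windows with at least 20 contacts at 0 dpa, the lost share had a median of 18.95% and quartiles of 12.5% and 28.4%, ran up to 76.9%, and was at least 40% in 50 windows and 0% in 10. Gains exceeded losses by 10 or more in 41 windows, and losses exceeded gains by 10 or more in 65. Of the 1346 windows, 178 had at least 10 gained contacts, 194 had at least 10 lost contacts and 48 had both. Over all windows gained and lost counts had a Spearman rho of 0.21. Each also rose with the number of called contacts in its own list, with a rho of 0.61 for gained and 0.65 for lost. Over the 554 windows with 20 contacts in both lists the gained and lost shares had a Spearman rho of 0.24, which is given as a description since windows share the lists' depth. Losses outnumbered gains on 22 of the 25 chromosomes, from 0.534 gained per lost contact on chromosome 1 to 1.23 on chromosome 25.

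**Figure D2:**
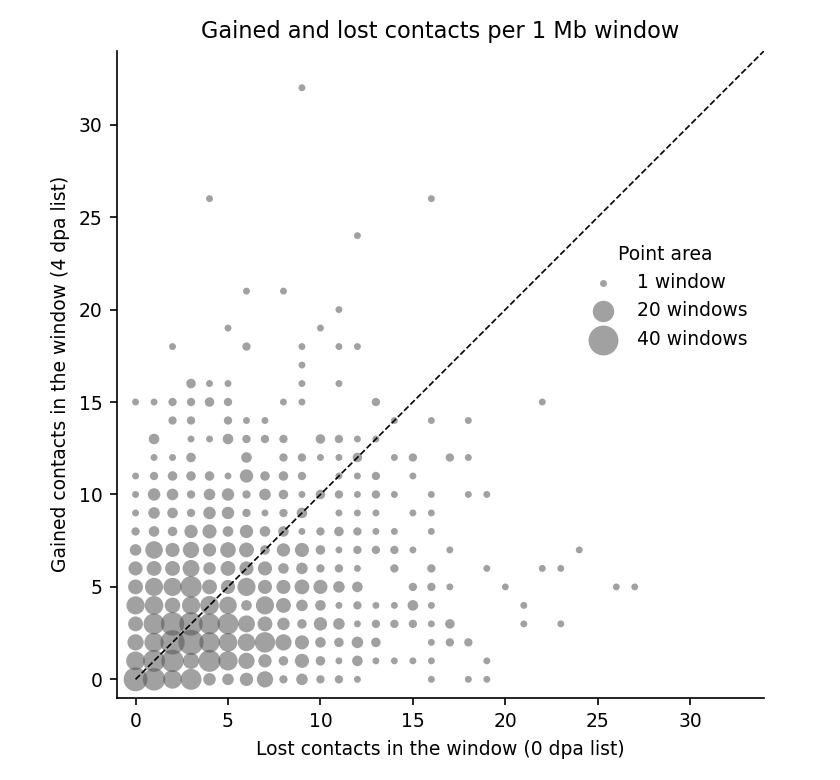
Gained contacts of the 4 dpa list (vertical axis) against lost contacts of the 0 dpa list (horizontal axis) in 1346 windows of 1 Mb; point area gives the number of windows and the dashed line marks equal numbers. The window with most gained contacts (32, at the top) had 9 lost, and the window with most lost (27, at the right) had 5 gained. Over all windows the 2 counts had a Spearman rho of 0.21.

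The window with most gained contacts was 39000001–40000000 of chromosome 7. It had 32 gained among 55 contacts at 4 dpa (58.2%) and 9 lost among 27 at 0 dpa (33.3%). Its gained contacts spanned 20 to 290 kb with a median of 145 kb and had 13 to 68 counts. All 9 lost contacts were of 20 to 40 kb and had 33 to 50 counts. The strongest gained contact joined 39750001–39760000 to 40030001–40040000, with 23 counts at 6.27 times expected (3.97 to 9.41). The window to its right, 40000001–41000000, had 13 gained among 21 contacts (61.9%) and 1 lost among 7 (14.3%). Of these 13 gains, 8 formed 1 block that joined the 2 windows, so they are also among the 32 of the first. With 2 further windows they formed 1 of the longest runs of neighbouring windows that each gained at least 5 more than they lost, from 39000001 to 43000000. This run rests in part on the block being counted in both windows. The 18 contacts of the first of these windows that were called in identical bins had a median 4 over 0 dpa ratio of 0.879, against 0.899 over all such pairs.

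On chromosome 20, the window at 22000001–23000000 had 26 gained among 74 contacts at 4 dpa (35.1%) and 4 lost among 45 at 0 dpa (8.89%). Its gains had a median span of 245 kb, and its 4 losses spanned 20 to 50 kb. The strongest gain, between 22470001–22480000 and 22800001–22810000, had 21 counts and was 6.87 times expected (4.25 to 10.5). The window at 26000001–27000000 of chromosome 19 had 21 gained among 75 contacts (28.0%), with a median span of 270 kb. It had 8 lost among 54 (14.8%), and these were longer than on chromosome 20, with a median span of 155 kb and 2 of at most 50 kb.

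The number of losses differed among the other windows with many gains. On chromosome 7, the window at 36000001–37000000 had 26 gained among 75 contacts (34.7%) and 16 lost among 56 (28.6%), with median spans of 310 and 155 kb. On chromosome 8, the window at 30000001–31000000 had 24 gained among 58 (41.4%) and 12 lost among 40 (30%), and here all 12 losses were of at most 50 kb. The highest gained share, 75%, was found at 31000001–32000000 of chromosome 9, with 15 gained among 20 contacts and 5 lost among 9. Of those 15 gains, 14 were over 200 kb, and the strongest, between 30860001–30870000 and 31080001–31090000, had 26 counts and was 6.56 times expected (4.29 to 9.62). On chromosome 15, the window at 19000001–20000000 had 15 gained among 22 contacts (68.2%) and 4 lost among 14 (28.6%), all 4 of 20 kb.

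The 5 windows with most lost contacts had 3 to 7 gains each, but they held more contacts than most windows. Among windows with at least 20 contacts at 4 dpa, the gained share had a lower quartile of 10.6% and a median of 18.5%. The gained shares of 10.0%, 9.80% and 6.98% lay under that quartile, and those of 17.6% and 23.3% above it. At 18000001–19000000 of chromosome 25, 5 of 50 contacts at 4 dpa were gained (10.0%) and 27 of 87 at 0 dpa were lost (31.0%). These losses were not all short, with a median span of 100 kb. At 15000001–16000000 of chromosome 20, 5 of 51 were gained (9.80%) and 26 of 72 lost (36.1%), with a median lost span of 95 kb. At 8000001–9000000 of chromosome 9, 6 of 34 were gained (17.6%) and 23 of 63 lost (36.5%), and the lost contacts had a median span of 170 kb. The window at 43000001–44000000 of chromosome 8 also belonged here, with 3 gained of 43 (6.98%) and 23 lost of 73 (31.5%). Of the 23 losses on chromosome 9, 9 were at least 1.5 times the level called at 4 dpa, the most in any window named here. The strongest of them joined 8190001–8200000 to 8450001–8460000, with 27 counts at 8.23 times expected (5.43 to 11.98). At 40000001–41000000 of chromosome 1, 18 of the 24 losses were of at most 50 kb, and at 26000001–27000000 of chromosome 14, 11 of the 18. Over all lost contacts this share was 67.6%, so these 2 windows were not unusual in it. The chromosome 1 window had 7 gains among 30 contacts at 4 dpa and the chromosome 14 window none among 25.

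The highest lost share, 76.9%, was found at 7000001–8000000 of chromosome 6, where 5 of 13 contacts at 4 dpa were gained and 20 of 26 at 0 dpa were lost. On chromosome 14, the window at 10000001–11000000 had no gain among 4 contacts and 16 losses among 22 (72.7%), each of at most 50 kb. Further along, at 12000001–13000000, 5 of 11 contacts were gained and 17 of 24 lost (70.8%). A window on chromosome 5, at 46000001–47000000, was turned over on both sides, with 12 gained among 20 contacts (60%) and 15 lost among 22 (68.2%). Its gains had a median span of 150 kb and all 15 losses were of at most 50 kb. At the other extreme, the window at 25000001–26000000 of chromosome 16 had 15 gained among 52 contacts and lost none of 47. In all, 10 windows with at least 20 contacts at 0 dpa lost none, and the others with most contacts in both lists together are 1–1000000 of chromosome 22 (8 gained of 51, none lost of 40), 25000001–26000000 of chromosome 11 (6 of 36, none of 34) and 25000001–26000000 of chromosome 5 (7 of 38, none of 28). Of the 9 windows with at least 20 contacts at 4 dpa and no gain, the others with most contacts in both lists together are 10000001–11000000 of chromosome 22 (none of 39, 2 lost of 35), 25000001–26000000 of chromosome 22 (none of 24, 9 of 46) and 67000001–68000000 of chromosome 5 (none of 25, 7 of 33).

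That chromosome 16 window owed 7 of its 15 gains to a single bin with very distant partners. The bin at 25810001–25820000 had 17 called contacts at 4 dpa, all 3.13 to 3.51 Mb away, and 11 at 0 dpa, all 3.25 to 3.46 Mb away. They had 12 to 49 counts at 4 dpa and 12 to 37 at 0 dpa. Between 9.28 and 38.9 times the expected count was reached at 4 dpa, and between 9.69 and 28.6 times at 0 dpa. The 9 of these pairs found in identical bins had a median 4 over 0 dpa ratio of 1.07. The bin was singled out after its values were seen.

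Gained long contacts and lost short contacts did not share anchors more than other contacts did. Here long means over 200 kb and short at most 50 kb, and an anchor was shared when within 1 bin. Of the 1510 gained long contacts (26.9% of all long contacts at 4 dpa), 244 had an anchor at a lost short contact, which is 16.2% (14.3 to 18.1). Of the 4111 kept long contacts, 780 did, which is 18.97% (17.8 to 20.2). At kept short contacts the shares were 21.3% for gained long and 25.3% for kept long contacts. From the other side, 234 of the 4396 lost short contacts (5.32%, 4.68 to 6.03) had an anchor at a gained long contact, against 430 of 8228 kept short contacts (5.23%, 4.76 to 5.73). Lost short contacts were 34.8% of all short contacts at 0 dpa. Contacts of 1 neighbourhood share their reads and bins, which these intervals ignore. The first difference, of -2.81 percentage points, kept its sign in all 12 alternatives run for it. The second, of 0.097 points, turned in 4 of 12 and stayed under 1 point in all of them.

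The same held over all spans. An anchor at a lost contact was found for 32.0% of gained contacts, against 45.1% of kept contacts of the 4 dpa list. An anchor at a gained contact was found for 27.9% of lost contacts, against 38.6% of kept contacts of the 0 dpa list. Kept contacts lie in larger clusters with more neighbours, which move with these shares, and their part was not tested.

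In windows of 1 Mb, lost short contacts were about as frequent with gained long contacts as without, and the small differences ran both ways. Of the 715 windows with a gained long contact 599 (83.8%) also held a lost short contact, against 507 of the 631 windows without one (80.3%). Both shares followed the number of short contacts present at 0 dpa. With 0 to 4 of these, 58.2% of the windows with a gained long contact and 54.1% of those without had lost a short contact. With 5 to 9 the shares were 87.3% and 90.9%, with 10 to 19 they were 96.6% and 95.6%, and with 20 or more they were 100% and 98.6%. The share of short contacts lost, in windows with a gained long contact against those without, ran both ways too. It was 47.8% against 48.3% with 0 to 4 short contacts and 39.8% against 43.8% with 5 to 9. With 10 to 19 it was 36.1% against 35.5%, and with 20 or more 27.8% against 23.6%. Counting contacts instead, 34.2% of the short contacts at 0 dpa were lost in the 308 windows with at least 3 gained long contacts, against 34.4% in windows with none. Within the span of long contacts, the share that enclosed a lost short contact turned with length. Of gained contacts of 210 to 300 kb, 42.7% enclosed one, against 54.3% of kept ones. At 310 to 500 kb the shares were 50.2% and 57.6%, and from 510 kb to 1 Mb 61.6% and 50.7%. The mean number of enclosed 0 dpa short contacts turned too, with 2.33 against 3.35, 2.56 against 2.99 and 4.10 against 3.51. Of the enclosed short contacts, a higher share was lost within gained contacts in each class. A short contact was counted once for each long contact that enclosed it, so neighbouring long contacts count the same short ones again. It was 44.2% against 42.8%, 52.3% against 50.2% and, in the longest class, 48.9% against 39.3%. The longest class held 159 gained and 351 kept contacts.

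Anchor bins with a gained long contact and a lost short contact within 1 bin numbered 214, and the 4 with most gained long contacts are given here. Such overlap was not particular to gains. As given above, 16.2% of gained long and 18.97% of kept long contacts had an anchor at a lost short contact. The bin at 30240001–30250000 of chromosome 13 had 12 contacts at 4 dpa and 10 at 0 dpa. It gained 5 long contacts of 240 to 400 kb to its right, with 12 to 30 counts, and 2 short contacts of 20 and 30 kb within 1 bin of it were lost. The strongest gain, to 30490001–30500000, had 30 counts and was 7.91 times expected (5.34 to 11.3). The lost ones had 44 and 46 counts but were only 2.13 and 2.31 times expected. A bin of chromosome 14, at 41930001–41940000, had 3 contacts at 4 dpa and none at 0 dpa. All 3 were gained over 240 to 260 kb, at 5.85 to 6.59 times expected, beside 1 lost contact of 20 kb. The bin at 41030001–41040000 of chromosome 17 had 3 gained long contacts of 270 to 290 kb at 4 dpa, at 5.62 to 7.04 times expected, against 1 contact of any kind at 0 dpa. The bin at 3400001–3410000 of chromosome 23 had 3 gained long contacts, but it was busy in both lists, with 17 contacts at 4 dpa and 15 at 0 dpa.

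Gained contacts came singly or in small groups, and they stood alone more often than kept contacts. Linking gained contacts whose anchors both lay within 1 bin gave 3645 groups, of which 2293 were single contacts, 1004 pairs, 234 groups of 3, 74 of 4 and 40 of 5 or more. Groups of 2 or more held 58.5% of the gained contacts, and the largest held 8. Lost contacts formed 4354 groups, with 56.3% of contacts in groups of 2 or more and the largest holding 11. Such grouping was not particular to gained or lost contacts. In the 4 dpa list, 33.98% of gained contacts had no called neighbour of any kind, against 11.29% of kept ones. In the 0 dpa list this held for 36.47% of lost and 11.03% of kept contacts. The matching rule has a part in this order, since a large cluster offers more contacts to match. The share in groups depended on the calling limits, since the authors' lists admit an isolated contact only at a stricter FDR. With an FDR of at most 0.0001 in both lists, 20.8% of gained contacts were in groups. Gains grouped with other gains were longer than gains without a gained neighbour. The median span was 130 kb in groups of 2 or more, 160 kb in groups of 4 or more and 90 kb for the 2293 single ones. Of these 2293, 1876 had no called neighbour at all, and the others stood beside kept contacts. Among lost contacts the median spans were 30, 40 and 20 kb in the same classes.

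With matching within 1 bin, most gained contacts belonged to clusters that were gained whole; with identical bins, 46.6% did. The authors' clusters are the sets of called contacts linked within 1 bin, as all 9932 clusters at 4 dpa and all 10524 at 0 dpa matched such sets. Of the gained contacts, 4720 (85.5%) lay in 4 dpa clusters with no kept contact, and 801 (14.5%) stood beside kept contacts. For lost contacts 5485 (84.4%) lay in clusters lost whole. Clusters gained whole were small: 1876 were single contacts, 1207 held 2 or more, and the largest held 8. Gained contacts made up 43.6% of isolated 4 dpa contacts, 27.4% of those in clusters of 2 to 4, 6.79% in clusters of 5 to 9 and 4.89% in clusters of 10 or more. In the 0 dpa list the lost share was 49.5%, 29.5%, 8.59% and 6.21% in the same classes. Of the clusters with 10 or more contacts, 0 of 354 at 4 dpa were gained whole and 0 of 398 at 0 dpa were lost whole. A large cluster offers more contacts to match, so this order is in part set by the rule.

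**Figure D3:**
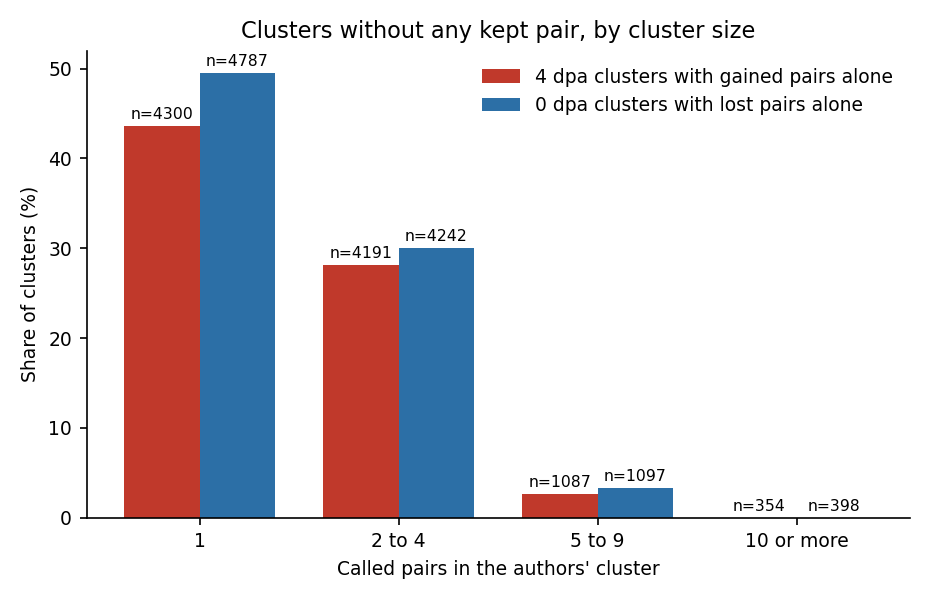
Share of clusters (vertical axis, percent) that held gained contacts alone in the 4 dpa list or lost contacts alone in the 0 dpa list, by number of called pairs in the cluster (horizontal axis); n gives the number of clusters. Single contacts were gained in 43.6% of 4 dpa cases and lost in 49.5% of 0 dpa cases, and clusters of 10 or more in none.

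The largest gained groups were compact blocks that joined 2 short stretches of chromosome. On chromosome 17, 8 gained contacts joined 40930001–40980000 to 41300001–41340000, over 330 to 390 kb. They had 12 to 36 counts and were 5.03 to 13.6 times expected, and 4 of the 8 were at least 1.5 times the level called at 0 dpa. The strongest, between 40950001–40960000 and 41320001–41330000, had 36 counts against 2.65 expected, 13.6 times (9.52 to 18.8). The left block had 10 called contacts at 4 dpa and 0 at 0 dpa, and the right block had 25 and 9. The nearest 0 dpa contact was 2 bins away, and it joined the bin directly beside the left block to the right block at 8.23 times expected. In the 4 dpa cluster of 11 contacts the other 3 were kept.

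On chromosome 2, 7 gained contacts joined 39800001–39850000 to 40130001–40150000, over 290 to 330 kb, and made up a whole cluster. They had 13 to 28 counts at 5.08 to 10.3 times expected. The left block had 8 called contacts at 4 dpa and none at 0 dpa, and the right block had 12 and 2, with the nearest 0 dpa contact 3 bins away. On chromosome 15, 7 gained contacts between 19040001–19060000 and 19110001–19150000 spanned 70 to 100 kb. They had 19 to 31 counts at 2.83 to 4.13 times expected, and the nearest 0 dpa contact was 7 bins away. Both blocks had 8 contacts at 4 dpa, against 0 and 1 at 0 dpa.

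Chromosome 7 had a block of 8 gained contacts between 39740001–39770000 and 40010001–40050000, in the window with most gains. These were 3.63 to 6.27 times expected. Its left block was an anchor in both lists, with 26 contacts at 4 dpa and 12 at 0 dpa, while its right block had 8 and 0, and the nearest 0 dpa contact was 2 bins away. A block of 8 on chromosome 19, between 25760001–25800000 and 26050001–26110000, joined stretches that were busy at both times, with 32 and 27 contacts at 4 dpa and 22 and 11 at 0 dpa. It lay in a cluster with 9 kept contacts, and 7 of that cluster's pairs, found in identical bins, had a median 4 over 0 dpa ratio of 0.973. The nearest 0 dpa contact was 2 bins away, and none of its 8 contacts was 1.5 times the level called at 0 dpa. On chromosome 5, 7 gained contacts between 46320001–46360000 and 46460001–46490000 were 3.44 to 4.23 times expected, with 7 contacts in both blocks at 4 dpa, against 0 and 2 at 0 dpa, and the nearest 0 dpa contact 5 bins away.

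The largest lost groups were shorter in reach. On chromosome 6, 11 lost contacts between 7950001–7990000 and 8000001–8040000 spanned 20 to 80 kb. They had 18 to 49 counts and were 2.62 to 3.77 times expected. The left block had 0 called contacts at 4 dpa and 15 at 0 dpa, and the right block had 8 and 21. On chromosome 3, 9 lost contacts between 26150001–26210000 and 26200001–26230000 formed a whole cluster of 20 to 50 kb. The left block had 1 contact at 4 dpa and 10 at 0 dpa, and the right block had 0 and 9. On chromosome 5, 9 lost contacts between 44650001–44690000 and 44680001–44720000 likewise formed a whole cluster. The right block had 0 contacts at 4 dpa and 9 at 0 dpa, but the left block was an anchor in both lists, with 7 and 19. The exception in reach was chromosome 2, where 9 lost contacts of 80 to 140 kb between 32060001–32080000 and 32150001–32220000 stood beside 9 kept ones. Its left block had 4 contacts at 4 dpa and 18 at 0 dpa, and its right block had 15 and 29.

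**Figure D4:**
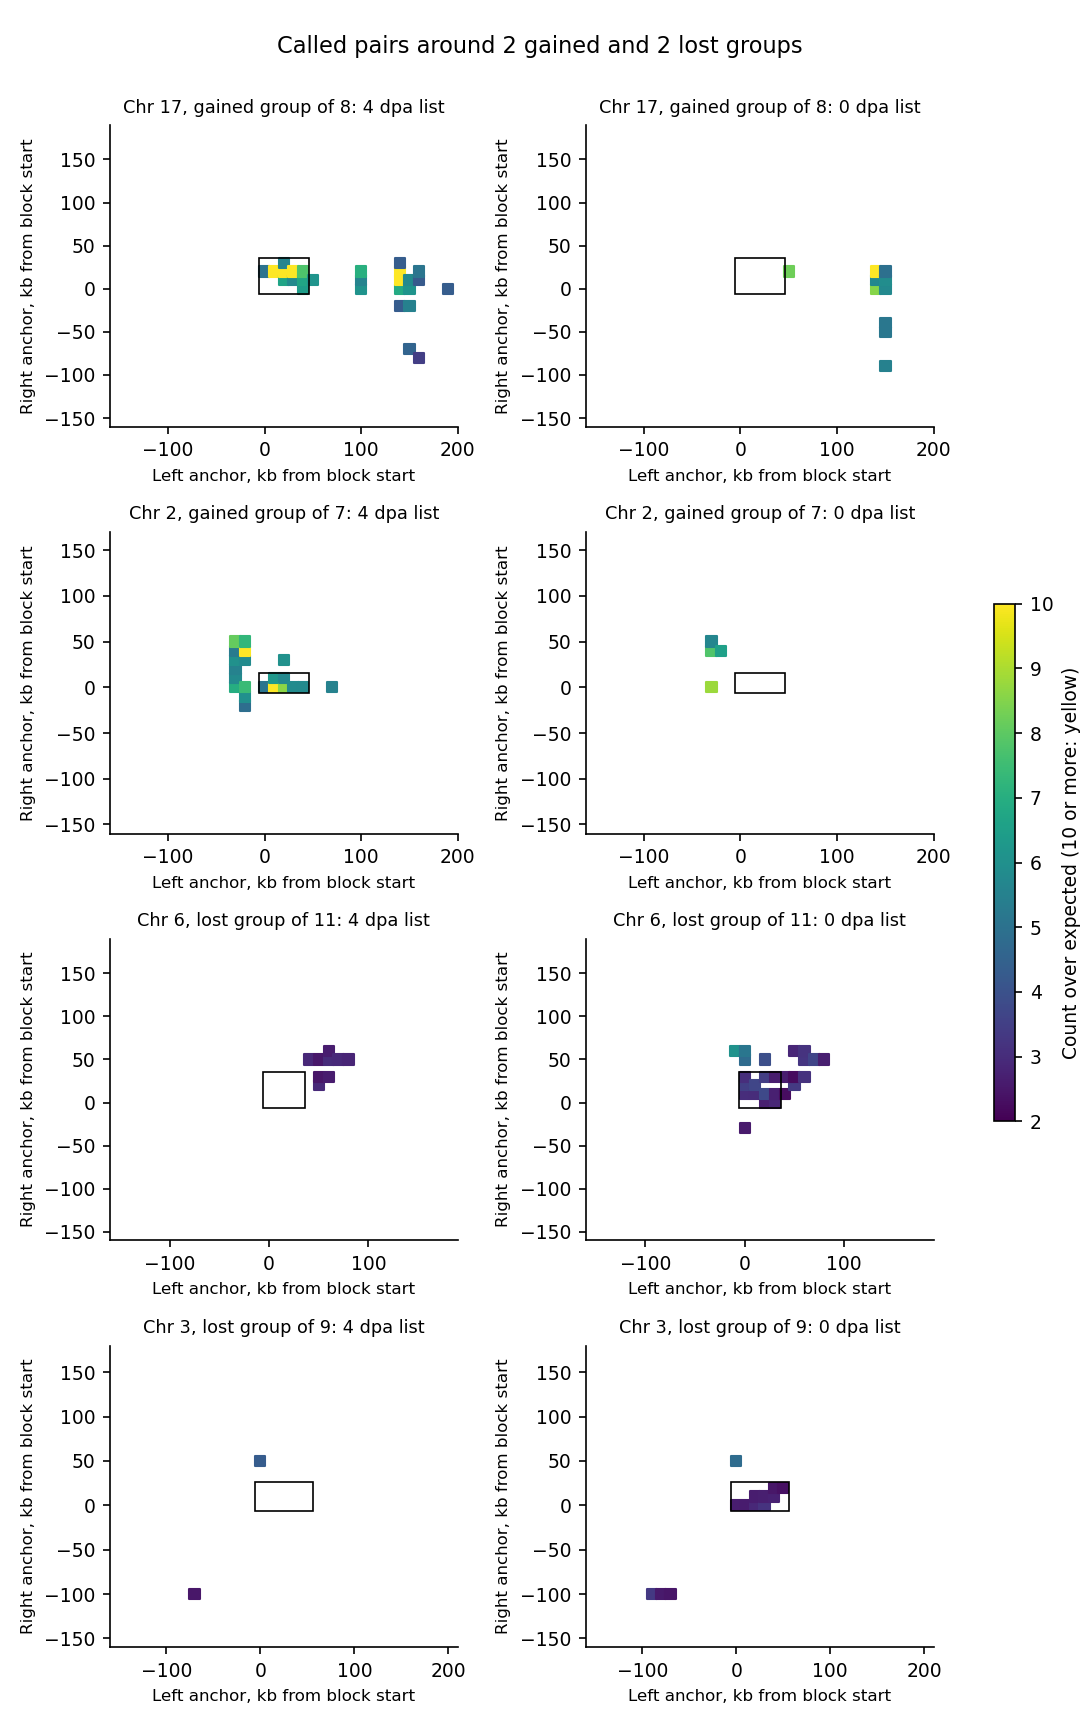
Called pairs around the chromosome 17 and chromosome 2 gained groups and the chromosome 6 and chromosome 3 lost groups, in the 4 dpa list (left) and the 0 dpa list (right). Axes give the distance in kb of the left and right anchor from the start of the group's blocks (boxed). Colour gives the count over expected, with 10 or more in yellow. Each box holds called pairs in 1 list and none in the other, which follows largely from the rule for gained and lost contacts.

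Contacts called in identical bins numbered 15730. Their ratio of count over expected, 4 over 0 dpa, had a median of 0.899 (0.895 to 0.903), with 5% of pairs under 0.612 and 5% over 1.32. It was at least 1.5-fold higher at 4 dpa for 303 pairs, or 1.93%, and at least 1.5-fold lower for 1558, or 9.90%. Counts and expected counts, neither scaled for depth, were both higher at 4 dpa, and the expected counts by more. By the median the count itself was 1.08 times as high at 4 dpa, and the expected count 1.19 times. Taking raw counts, scaled to equal totals over these pairs, put 774 at least 1.5-fold above and 725 below, with a median ratio of 1.02. Centring the ratios put 684 above and 685 below. Pairs called in 1 list alone have no ratio and are left out here.

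The ratio varied with span, as the box plot of ratios shows. Its median was 0.878 at 20 kb, 0.857 at 30 kb, 0.898 at 60 to 100 kb, 0.954 at 210 to 500 kb, 1.00 from 510 kb to 1 Mb and 0.930 over 1 Mb. At 20 kb, 1 pair was 1.5-fold higher and 224 were lower. From 210 to 500 kb, 103 were higher and 189 lower, and over 1 Mb 24 were higher and 64 lower. The counts themselves did not follow this order. By the median the count was 1.12 times as high at 4 dpa at 20 kb, 1.07 times at 210 to 500 kb and 0.933 times over 1 Mb. The expected count was 1.28, 1.12 and 1.00 times as high in the same classes. At 20 kb the counts and the expected counts were thus both higher at 4 dpa, and the expected counts by more. These counts are not scaled for depth, which is unknown, and its part was not tested. Identical pairs in 4 dpa clusters that also held gained contacts, with no lost contact in their 0 dpa cluster, had a median ratio of 0.954 (1409 pairs). Those in 0 dpa clusters that held lost contacts, with no gained one at 4 dpa, had 0.878 (2030 pairs), and those in clusters with neither had 0.896 (12156 pairs). Span differs between these clusters, and its part in the order was not tested.

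**Figure D5:**
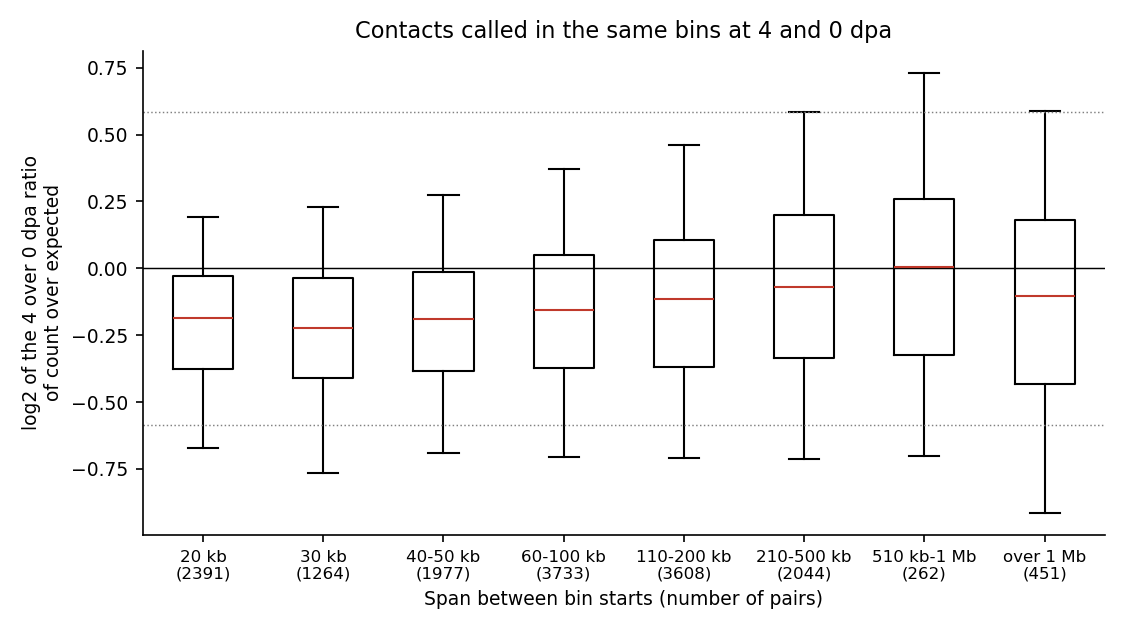
log2 of the 4 over 0 dpa ratio of count over expected (vertical axis) for pairs called in identical bins, by span (horizontal axis, number of pairs in parentheses). Boxes give quartiles and median, whiskers the 5th and 95th percentiles, and dotted lines 1.5-fold; the median lies under 0 in each class but that of 510 kb to 1 Mb, where it is near 0.

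Windows with net gains and net losses differed little in their identical pairs. Among the 713 windows with at least 10 such pairs, the median ratio ranged from 0.677 to 1.19. Its median was 0.916 in the 130 windows that gained at least 5 more contacts than they lost, and 0.890 in the 159 windows that lost at least 5 more than they gained. The net number and the ratio had a Spearman rho of 0.14 over the 713 windows, a description over windows that share lists and expected counts. The highest ratio, 1.19, was at 32000001–33000000 of chromosome 25 (11 pairs), where 7 of 24 contacts were gained and 5 of 18 lost. The lowest, 0.677, was at 55000001–56000000 of chromosome 1 (16 pairs), where 2 of 19 were gained and 3 of 20 lost. Neither window stood out by gained or lost contacts.

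Single pairs differed by more than 2-fold. The largest ratio was that of a chromosome 12 contact joining 23420001–23430000 to 23640001–23650000, with 41 counts (9.89 times expected) at 4 dpa against 14 (4.09 times) at 0 dpa, a ratio of 2.42 (1.29 to 4.80). Of the 5 identical pairs in its cluster, 4 had a ratio above 1. On chromosome 3, a contact over 1340 kb between 2170001–2180000 and 3510001–3520000 reached 29 counts at 4 dpa against 12 at 0 dpa, a ratio of 2.37 (1.17 to 5.10). On chromosome 21, a contact between 17670001–17680000 and 17940001–17950000 reached 36 counts at 4 dpa against 13 at 0 dpa, a ratio of 2.36 (1.22 to 4.84). On chromosome 9, a contact between 5370001–5380000 and 5660001–5670000 reached 39 counts at 4 dpa against 15 at 0 dpa, a ratio of 2.22 (1.20 to 4.34). A contact of chromosome 12 between 34450001–34460000 and 34760001–34770000 reached 28 counts at 4 dpa against 12 at 0 dpa, a ratio of 2.22 (1.09 to 4.78). The 22 identical pairs of its cluster had a median ratio of 0.960, against 0.899 over all identical pairs, and 12 of the 22 were below 1.

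The 5 lowest ratios were those of contacts that mostly stood alone. On chromosome 6, a contact over 17530 kb between 12960001–12970000 and 30490001–30500000 reached 12 counts at 4 dpa against 40 at 0 dpa, a ratio of 0.300 (0.143 to 0.584). A chromosome 11 contact joining 44230001–44240000 to 44530001–44540000 followed, with 16 counts at 4 dpa against 43 at 0 dpa, a ratio of 0.333 (0.175 to 0.603). A 30 kb contact of chromosome 5 joining 28810001–28820000 to 28840001–28850000 had 33 counts at 4 dpa against 72 at 0 dpa, a ratio of 0.335 (0.215 to 0.512). On chromosome 23, a contact joining 41980001–41990000 to 42240001–42250000 reached 14 counts at 4 dpa against 37 at 0 dpa, a ratio of 0.344 (0.172 to 0.652). The last, on chromosome 3 with anchors 55330001–55340000 and 56040001–56050000, had 12 counts at 4 dpa against 33 at 0 dpa, a ratio of 0.347 (0.163 to 0.690). Each but that of chromosome 5 was a single call with no called neighbour in both lists. All 10 were picked as extremes out of 15730, a choice that the intervals do not allow for.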

How the data were processed

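HiCAR libraries were made from 3 pools at 4 dpa and 3 at 0 dpa. Per the submitters' processing notes, reads were aligned with BWA to danRer11. Its version, the interaction caller, the background model and how pools were combined were not given in the sources used here. The lists were matched to time points by their names. Per the file headers, the deposited lists give a count per pair of 10 kb bins, an expected count from the authors' model (called other here, as no standard unit), an FDR (a q-value) and the authors' −log10 p of each cluster, which was not used.

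Python 3.11.15 with pandas 2.3.3 and scipy 1.17.1 computed matches, windows, groups and ratios, and was tested on simulated lists with planted changes. The FDR was under 0.01 in both lists and at most 0.0001 for singletons. Intervals at the 95% level are exact Poisson for counts, conditional binomial for ratios, Clopper-Pearson for shares and order-statistic for medians. No test was made, because each time has 1 list. Depth is unknown.

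Members, lists and naming rules were chosen with earlier results of these data known. Named are the 5 windows with most gained and most lost contacts, the 4 with the highest and lowest shares (ties to the window with more contacts in both lists together), the 6 and 4 largest groups, 4 anchors with both changes, and the 5 highest and lowest ratios (count of at least 20, 1 per cluster). The calling level of the other list, anchors used in 1 list and the distant bin of chromosome 16 were added after the lists were seen. No gene or sequence is given, because no danRer11 annotation or genome was used here. The 1 dpa list was not used. Positions are 1-based in danRer11.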

Additional observations from a re-analysis of the deposited data

How the results depend on the processing

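Of 155 values recomputed under alternatives, 87 stayed within the error or size limit of the main value, 62 moved and 6 changed sign. Identical bins for matching gave 11258 gained and 12691 lost contacts, 29.0% of gains in the top windows, 23.8% of gained long contacts at a lost short one and 8.15% the other way, 90.7% of windows with both, 46.6% of gains in clusters gained whole, a span difference of 60 kb (80 kb as reported) and a gained minus lost share in groups of 0.241 points (2.18 as reported). Matching within 2 bins gave 32.7%, 13.8%, 4.50%, 78.4% and 92.2% for the same shares and 4.08 points for groups. An FDR of at most 0.0001 gave 28.3% of gains and 28.4% of losses in the top windows, 12.03%, 4.21% and 80.3% for long with short, 20.8% in groups, 88.4% in whole clusters, a median ratio of 0.893 with 148 pairs higher and 992 lower, and 70 kb. A count of at least 20 gave 1.95% of lost short contacts at a gained long one, a gained minus kept difference of -6.73 points, 46.0% in groups, 86.6% in whole clusters, a ratio of 0.883 with 91 pairs higher, and 50 kb; the share in groups was then lower for gained than lost contacts, by -7.01 points. Without singletons, 33.4% of losses lay in the top windows, 14.3% of gained long contacts were at a lost short one, 70.0% of windows had both, 93.0% of gains were in groups and the difference in groups was 0.219 points; with lists of equal length that difference was 9.72 points, and with links within 2 bins it was 0.306 at 62.4% in groups. Windows of 500 kb gave 37.5% of gains and 37.0% of losses in the top windows and 62.8% of windows with both; 2 Mb gave 24.9%, 24.5% and 94.8%. Long as over 100 kb gave 19.97%, 11.7% and -5.67 points; over 500 kb gave 0.978%; short as at most 30 kb gave 13.8% and 79.9%; the identical anchor bin gave 8.61% and 2.82%. The lost minus kept difference at gained long contacts turned to -0.0845, -0.426, -0.0272 and -0.201 points at an FDR of at most 0.0001, a count of at least 20, without chromosome 4 and with long as over 500 kb. Raw counts gave a median ratio of 1.02 with 774 pairs higher and 725 lower, and centred ratios 1 by construction with 684 and 685. Contacts at least 1.5 times the other list's calling level, an alternative added after the lists were seen, numbered 696 gained and 849 lost. The cause of these moves was not tested. No paired analysis was possible because each time point has 1 list without replicate values, and leaving out a pool was not possible either. Depth, which the lists do not give, limits what an absent call can show.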
